A study of Mus musculus with 4 samples.

Results

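Notch receptors, Notch target genes and the transcription factors that start the T cell program were read on 4 one-color arrays of donor-derived progenitors, as a group of 8 genes chosen by symbol. They were the receptors *Notch1* and *Notch2*, the target genes *Hes1*, *Dtx1* and *Nrarp*, and the T lineage factors *Gata3*, *Tcf7* and *Bcl11b*, the last a paralog of *Bcl11a*. Of these 8 genes, 7 had a probe set annotated with their symbol alone, 1 probe set each, among 19938 genes in all. *Tcf7* was not analysed here.

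The arrays held *Bcl11a*-/- MPPs, WT MPPs, *Bcl11a*-/- GMPs and WT GMPs, with 1 array per group. MPPs were CD150-negative LSK cells, which can still form all blood lineages, and GMPs form granulocytes and macrophages. All donor cells came from fetal livers, *Bcl11a*-/- or *Bcl11a*+/+, and had been given at 4e6 cells to B6.SJL recipients after 1200 rad; BM was taken 4 weeks later per the labels, so every group had passed through an irradiated host. The null allele is constitutive and lacks the first exon, sorted cells of 1 donor genotype were combined into 1 pool, and the sources used here do not state how many mice made a pool or how old the recipients were.

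Notch signaling begins when a ligand such as Delta-like or Jagged on one cell binds a Notch receptor on its neighbor. The receptor is then cut by ADAM proteases and by gamma-secretase, and its intracellular part enters the nucleus and joins Rbpj and a Mastermind-like coactivator to switch on targets such as *Hes1*, *Dtx1* and *Nrarp*. In the thymus this signal turns blood progenitors toward the T lineage, first through *Tcf7* and *Gata3* and later through *Bcl11b*, which locks in T cell commitment. In the BM the same progenitors see less Notch ligand, and B cell development is the default lymphoid outcome.

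Short promoter windows show which members carry the letters of a site for the factors involved. For 7 of the 8 members RefSeq (GRCm38.p6) gave 8 windows, each from 250 bases before to 50 bases after a transcription start. *Hes1* had no window and was not searched. TGACCA, the letters BCL11A binds in the human fetal globin promoters, was searched on both strands, as was TGGGAA, the core of the Rbpj site. TGACCA was found in 1 of the 8 windows, that of *Nrarp*, and in 13.6% of all 32851 windows. TGGGAA was found in 0 of the 8 windows and in 25.6% of all windows. The *Nrarp* window is printed because it was the member window that held TGACCA, and the capitals mark its 2 matches, which begin 201 and 172 bases before the start and are on opposite strands. The first of 4 *Lef1* windows is printed because *Lef1*, a T lineage factor outside the 8 genes, had the largest genotype difference among the listed T lineage factors in MPPs. Its capitals mark GTGGGAA, a longer form of the Rbpj letters that contains TGGGAA, which begins at base 38 after the start and stands in 6.38% of all windows. Of the *Lef1* windows not printed, window 2 overlaps the printed one and held the same GTGGGAA, and window 3 held TGGGAA. Window 4 held TGGTCA, which is TGACCA on the opposite strand, 183 bases before its start. A match of letters is a description and not a bound site. Both printed windows are on the plus strand.
*Nrarp*, chr2:25180508-25180807: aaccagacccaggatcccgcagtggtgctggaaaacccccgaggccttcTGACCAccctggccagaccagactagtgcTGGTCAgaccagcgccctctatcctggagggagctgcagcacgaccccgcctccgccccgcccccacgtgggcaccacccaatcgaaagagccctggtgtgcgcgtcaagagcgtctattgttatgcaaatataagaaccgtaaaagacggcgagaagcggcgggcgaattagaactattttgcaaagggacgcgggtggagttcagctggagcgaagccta
*Lef1*, chr3:131110047-131110346: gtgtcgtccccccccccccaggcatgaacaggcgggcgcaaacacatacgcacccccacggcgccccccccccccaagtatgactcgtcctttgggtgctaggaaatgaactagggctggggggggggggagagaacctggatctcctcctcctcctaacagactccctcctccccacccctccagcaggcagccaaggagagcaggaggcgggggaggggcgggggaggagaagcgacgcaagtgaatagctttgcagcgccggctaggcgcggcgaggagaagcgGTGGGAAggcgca

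Signals are on a log2 scale, and their median over all genes lay between 5.67 and 5.84 on the 4 arrays. Differences are given in log2 units, *Bcl11a*-/- minus WT or MPPs minus GMPs, and folds are 2 raised to that difference. The labels were checked first. *Bcl11a* signal was 2.39-fold lower in *Bcl11a*-/- than in WT MPPs and 1.78-fold lower in *Bcl11a*-/- than in WT GMPs; probes outside the deleted exon can still find transcript. All 9 measured MPP markers were higher in MPPs than in GMPs and all 10 GMP markers were lower, in *Bcl11a*-/- and in WT cells alike. Between genotypes the correlation across genes, which are not independent replicates, was 0.976 in MPPs and 0.991 in GMPs. The files carry no detection call, and levels of different probe sets cannot be compared with each other. With 1 array and 1 pool per genotype, no difference between genotypes has a replicate check, and none has a p-value.

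None of the 7 measured members differed by 2-fold or more between genotypes in either population. In MPPs 4 members had higher and 3 had lower values in *Bcl11a*-/- cells, and in GMPs 3 had higher and 4 had lower values. The median difference of the members was 0.11 in MPPs and −0.01 in GMPs, beside 0.05 and 0.01 over all genes. Its sign depended on which members were kept: once members dimmer than 6 on both arrays were left out, the median was −0.36 over 5 members in MPPs and 0.15 over 2 members in GMPs. Across all genes 0.908% were over 2-fold higher and 2.02% over 2-fold lower in *Bcl11a*-/- MPPs, and 0.361% were higher and 0.281% lower in *Bcl11a*-/- GMPs, so that 0 of 7 members is a count near that background. In pooled cells, fewer cells with a transcript and less transcript per cell cannot be told apart. Within this range *Gata3*, *Hes1* and *Notch1* had the lowest differences in MPPs.

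**Figure D1:**
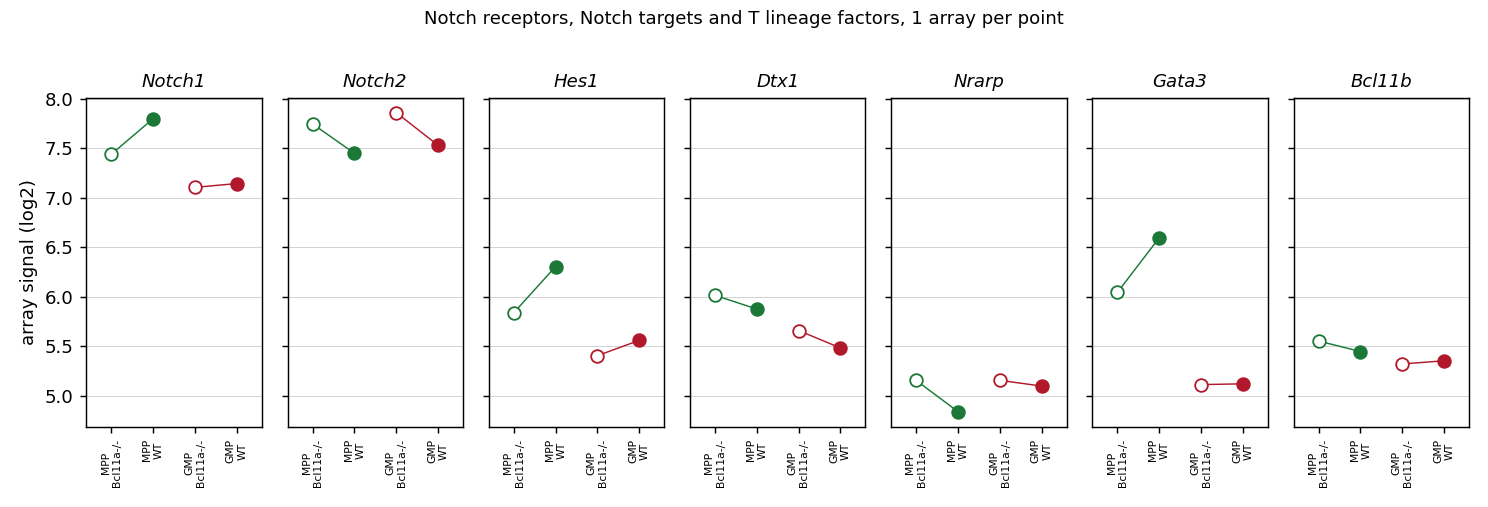
Array signal (log2, y axis) of the 7 measured members in *Bcl11a*-/- (open) and WT (filled) MPPs (green) and GMPs (red), 1 array per point, with lines joining the genotypes of a population. *Gata3* is at 6.04 in *Bcl11a*-/- MPPs and 6.60 in WT MPPs, above both of its GMP values, and the *Bcl11b* points lie between 5.32 and 5.55.

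*Notch1* and *Notch2*, the receptors that blood progenitors use, differed between genotypes in opposite directions in MPPs. *Notch1*, the receptor needed for T lineage choice, had a signal of 7.44 in *Bcl11a*-/- MPPs, against 7.80 in WT MPPs, and of 7.11 in *Bcl11a*-/- GMPs, against 7.14 in WT GMPs. It was highest in WT MPPs, 1.28-fold lower in *Bcl11a*-/- than in WT MPPs, and within 0.04 log2 units between the GMP arrays. *Notch2*, which is needed for marginal zone B cells, had a signal of 7.75 in *Bcl11a*-/- MPPs, against 7.45 in WT MPPs, and of 7.86 in *Bcl11a*-/- GMPs, against 7.53 in WT GMPs. Both *Bcl11a*-/- arrays were above both WT arrays, by 1.23-fold in MPPs and 1.26-fold in GMPs. The MPP and GMP differences come from the same pools of chimeras, so the GMP difference is not a repeat of the MPP one. *Notch3* and *Notch4*, the other receptors, were within 0.22 log2 units between genotypes in both populations.

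Among the Notch target genes the differences did not run one way. *Hes1*, a repressor of the basic helix-loop-helix family, had a signal of 5.84 in *Bcl11a*-/- MPPs, against 6.30 in WT MPPs, and of 5.40 in *Bcl11a*-/- GMPs, against 5.56 in WT GMPs. It was lower in *Bcl11a*-/- cells of both populations, 1.38-fold in MPPs and 1.11-fold in GMPs. *Dtx1*, which encodes the ubiquitin ligase Deltex 1, was at 6.01 in *Bcl11a*-/- MPPs, against 5.88 in WT MPPs, and at 5.66 in *Bcl11a*-/- GMPs, against 5.48 in WT GMPs, so that its values were higher in *Bcl11a*-/- cells by 0.14 and 0.18 log2 units. *Nrarp*, a small ankyrin repeat protein that dampens Notch signaling, was at 5.15 in *Bcl11a*-/- MPPs, against 4.84 in WT MPPs, and at 5.15 in *Bcl11a*-/- GMPs, against 5.10 in WT GMPs. The WT MPP array was the low one, and the other 3 arrays lay within 0.06 of each other. Its difference was 0.32 in MPPs and 0.06 in GMPs, and at 0.15 its MPP difference was smaller once signals under 5 were set to 5.

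*Gata3*, the zinc finger factor of T cells and innate lymphoid cells, had the lowest genotype difference of the members in MPPs. Its signal was 6.04 in *Bcl11a*-/- MPPs, against 6.60 in WT MPPs, and 5.11 in *Bcl11a*-/- GMPs, against 5.12 in WT GMPs. Both MPP arrays were above both GMP arrays. *Gata3* was 1.47-fold lower in *Bcl11a*-/- than in WT MPPs, and the GMP arrays were 0.01 log2 units apart. *Bcl11b* was at 5.55 in *Bcl11a*-/- MPPs, against 5.45 in WT MPPs, and at 5.32 in *Bcl11a*-/- GMPs, against 5.35 in WT GMPs. All 4 *Bcl11b* values lay within 0.23 log2 units of each other, and the paralog's signal in *Bcl11a*-/- MPPs was 1.08-fold that in WT MPPs. The *Bcl11b* values and the *Gata3* GMP values lay under the array medians over all genes, which were between 5.67 and 5.84. With no detection call, close values at such low signals do not show equal levels. The difference between the MPP and GMP genotype differences was −0.54 for *Gata3*, −0.32 for *Notch1* and −0.31 for *Hes1*, and between −0.04 and 0.26 for the other 4 members. It was not tested, since a test would need a second pool of each genotype.

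Between populations *Gata3* was the member with the highest difference. It was 1.91-fold higher in *Bcl11a*-/- MPPs than in *Bcl11a*-/- GMPs and 2.78-fold higher in WT MPPs than in WT GMPs. Each pool gave 1 MPP and 1 GMP array, so the population difference was tested over both genotypes with limma, with genotype as a block. The error of each gene combined the difference between the 2 pairs with a variance shared over all genes. These carried 1 and 4.51 degrees of freedom, and each SE given is this combined one. *Gata3* was higher in MPPs by 1.20 ± 0.20 log2 units (SE, 2 pairs), with a Benjamini-Hochberg adjusted p of 0.040 in limma over all genes. It was the 1 member of 7 that passed, where 0.948% of all genes passed as higher and 2.81% as lower in MPPs (189 and 561 genes, or 439 and 645 with the arrays quantile normalized anew). The *Gata3* call was lost, at an adjusted p of 0.40, when signals under 5 were set to 5. Under that setting limma called 0 of the 19938 genes, with 2753 at an unadjusted p under 0.05, and 5996 genes at the floor on all 4 arrays had no spread.

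*Hes1*, *Notch1* and *Dtx1* had higher values in MPPs than in GMPs in both genotypes but did not pass. *Hes1* was 1.35-fold higher in *Bcl11a*-/- MPPs than in their GMPs and 1.68-fold higher in WT MPPs than in theirs, with a limma estimate of 0.59 ± 0.17 and an adjusted p of 0.12. *Notch1* was 1.26-fold higher in *Bcl11a*-/- and 1.58-fold higher in WT MPPs, with an estimate of 0.50 ± 0.17 and an adjusted p of 0.16. *Dtx1*, at 0.37 ± 0.16, had an adjusted p of 0.22. These estimates are smaller than that of *Gata3*, and a miss of the threshold does not show equal levels. *Notch2*, *Nrarp* and *Bcl11b* had estimates of −0.10, −0.13 and 0.16 with adjusted p-values between 0.57 and 0.74 in limma. For *Notch2* and *Bcl11b* another scaling turned the sign of a population difference, *Notch2* to 0.05 in *Bcl11a*-/- and 0.02 in WT cells, and *Bcl11b* to −0.05 in WT cells.

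Counted by size alone, 0 of 7 members were over 2-fold higher in *Bcl11a*-/- MPPs than in *Bcl11a*-/- GMPs, and 1 of 7 was in WT MPPs. Over all genes 2.36% were over 2-fold higher and 5.82% lower in *Bcl11a*-/- MPPs, and 1.33% were higher and 2.8% lower in WT MPPs. At 1.5-fold, *Gata3* alone was higher in *Bcl11a*-/- MPPs, and *Gata3*, *Hes1* and *Notch1* were in WT MPPs, with no member lower in either. At this size 10.9% of all genes were higher and 11.8% lower in *Bcl11a*-/- MPPs, and 6.67% were higher and 7.97% lower in WT MPPs. The median population difference of the members was 0.34 in *Bcl11a*-/- and 0.39 in WT cells, beside 0.10 and 0.06 over all genes.

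**Figure D2:**
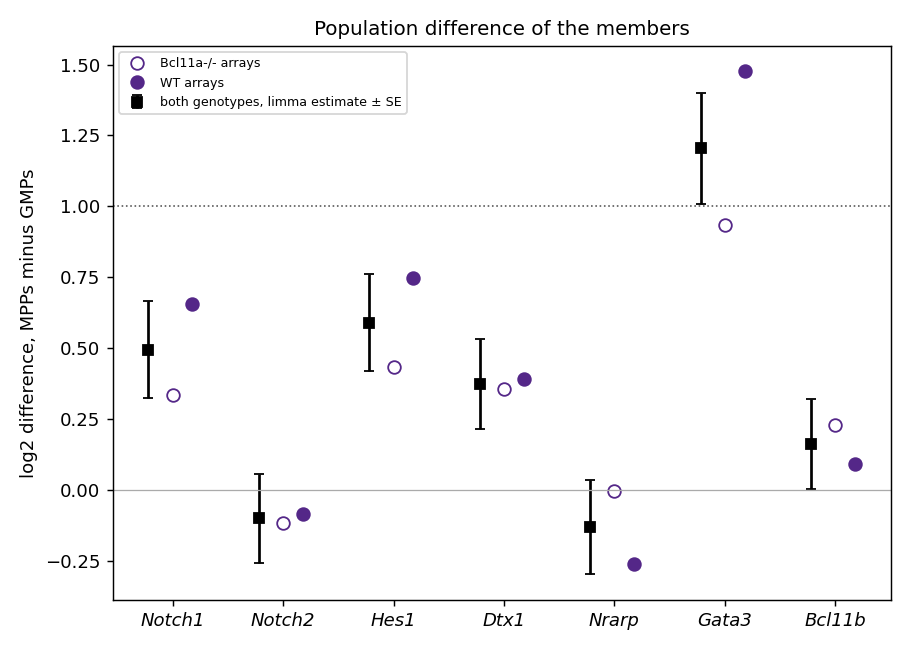
Log2 difference between MPPs and GMPs (y axis) of each member, with the limma estimate over both genotypes and its SE (black squares, 2 pairs of arrays), the *Bcl11a*-/- arrays (open circles) and the WT arrays (filled circles); the dotted line marks 2-fold. *Gata3* is at 0.93 in *Bcl11a*-/- and 1.48 in WT cells, and *Nrarp* is at or below 0 in both.

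*Gata3* was the single member whose 4 values spanned at least 1 log2 unit. The genes most like it over the 4 arrays, by Euclidean distance after each gene was centred on its mean, were *Fads2* (a fatty acid desaturase), *Afap1l1* (an actin filament associated protein) and *Mcoln2* (a cation channel of endolysosomes), at distances of 0.14, 0.16 and 0.17 log2 units among 2100 genes compared. In MPPs their genotype differences were −0.50, −0.63 and −0.36, and their population differences in WT cells were 1.61, 1.63 and 1.44. Each gene has only 4 values here.

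The rest of the Notch pathway was read through lists that hold 72 genes beside the members, of which 68 were measured. In *Bcl11a*-/- MPPs 0 of the 68 were over 2-fold higher, 2 were over 2-fold lower and 66 differed by less. Of all genes 0.908% were higher and 2.02% lower there, so these counts are near that background. In GMPs all 68 differed by less than 2-fold, where 0.361% of all genes were higher and 0.281% lower. The median difference of the 68 genes was 0.05 in MPPs and 0.01 in GMPs, and both values equal those of all genes at this precision. The 2 lower genes were *Psenen* and *Dtx4*.

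*Psenen* encodes the smallest subunit of gamma-secretase, the protease that releases the intracellular part of Notch. It had 2 probe sets, and its mean signal was 8.58 in *Bcl11a*-/- MPPs, against 10.24 in WT MPPs, and 10.35 in *Bcl11a*-/- GMPs, against 10.44 in WT GMPs. The *Bcl11a*-/- MPP array stood apart from the other 3, 3.17-fold below WT MPPs, and the probe sets differed by −1.56 and −1.77. The other gamma-secretase genes measured here differed by less than 2-fold: nicastrin (*Ncstn*) was at −0.52, *Aph1a* at 0.43, *Aph1b* at −0.11, *Aph1c* at 0.14 and presenilin 2 (*Psen2*) at 0.16 log2 units in MPPs. *Adam10*, the protease that makes the first cut, had the highest value of the processing genes at 0.53. *Dtx4*, a ubiquitin ligase related to Deltex 1, was at 5.65 in *Bcl11a*-/- MPPs, against 7.004 in WT MPPs, and at 7.42 in *Bcl11a*-/- GMPs, against 7.73 in WT GMPs. It was 2.56-fold lower in *Bcl11a*-/- than in WT MPPs and 1.24-fold lower in GMPs, while *Dtx2* and *Dtx3* were at −0.01 and 0.32 in MPPs. Most GMP markers were lower in the same array: 8 of 10 had lower values in *Bcl11a*-/- MPPs, with a median of −0.52. The other 2 of the list, *Cebpe* and *Fcgr3*, had higher values there, at 0.87 and 0.47. The 4 genes over 2-fold lower, *Elane*, *Prtn3*, *Ctsg* and *Ms4a3*, differed by −2.44, −2.65, −2.25 and −2.68 in MPPs. In GMPs these 4 differed by between −0.17 and 0.07. The summed log2 signal of this list was 79.2 in *Bcl11a*-/- MPPs, 89.7 in WT MPPs, 102 in *Bcl11a*-/- GMPs and 104 in WT GMPs. *Psenen* and *Dtx4* had lower values in MPPs than in GMPs in both genotypes, with differences of −1.77 each in *Bcl11a*-/- cells and of −0.20 and −0.73 in WT cells. In WT cells *Elane*, *Prtn3*, *Ctsg* and *Ms4a3* differed by −1.66, −1.70, −2.39 and −3.05 between the populations, so the likeness to *Psenen* there was in direction and not in size. The part of cells with GMP markers in the genotype differences of *Psenen* and *Dtx4* was not tested.

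Ligand genes had small differences. Of 6 ligand genes 4 had higher values in *Bcl11a*-/- MPPs, with *Dlk1*, a non-canonical ligand, at 0.55 and *Jag1* at 0.52, and *Dll1* the lowest at −0.15. In GMPs *Dlk1* was again the highest at 0.31 and *Dll1* the lowest at −0.28. The log2 signals of *Dll1*, *Dll3* and *Jag1* lay under 5 on every array, and *Jag1* was at 4.84 in *Bcl11a*-/- MPPs, against 4.32 in WT MPPs. Differences between such dim signals carry little weight. Progenitors respond to ligands mostly made by other cells, and those cells were not on these arrays.

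In the nuclear complex all 9 genes were within 2-fold between genotypes in both populations. In MPPs they ran between −0.31 for *Snw1* and 0.57 for the acetyltransferase gene *Ep300*. *Rbpj*, which encodes the DNA-binding partner of Notch, had 2 probe sets that gave different values. The brighter differed by −0.45 in MPPs and −0.03 in GMPs, and the dimmer by 0.08 and −0.55. The dimmer had log2 signals between 3.38 and 3.92, under 5 on every array, so its differences carry little weight. Between populations *Maml2* and *Maml3*, coactivators named after their values were seen, passed limma as higher in MPPs at 1.03 ± 0.16 and 1.13 ± 0.16 (SE, 2 pairs; adjusted p of 0.038 and 0.034). The probe sets of *Maml2* also disagreed in size, at 1.47 and 0.43 in *Bcl11a*-/- cells and at 1.95 and 0.27 in WT cells. Of the 13 measured Rbpj corepressor genes none was over 2-fold between genotypes, with *Tle1* the highest at 0.75 and *Cir1* the lowest at −0.50 in MPPs.

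The list of other genes that Notch induces in T progenitors had differences in both directions, with 3 of 7 below 0 in MPPs. This list also holds the members *Dtx1* and *Nrarp*, which were above 0. The 3 below 0 were *Ccnd1*, *Il2ra* and *Notch3*. Of the 9 Hes and Hey genes *Hes1* had the lowest difference in MPPs, and 6 of the 9 had higher values in *Bcl11a*-/- MPPs. *Ptcra*, the pre-T cell receptor alpha chain, differed by 0.18 in MPPs and −0.12 in GMPs, and *Il2ra*, with log2 signals of at most 4.18, by −0.31 and −0.49. *Ccnd1*, which encodes cyclin D1, was 1.64-fold lower in *Bcl11a*-/- than in WT MPPs, and *Myc* was 1.16-fold higher. No gene of these lists passed 2-fold in either direction.

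**Figure D3:**
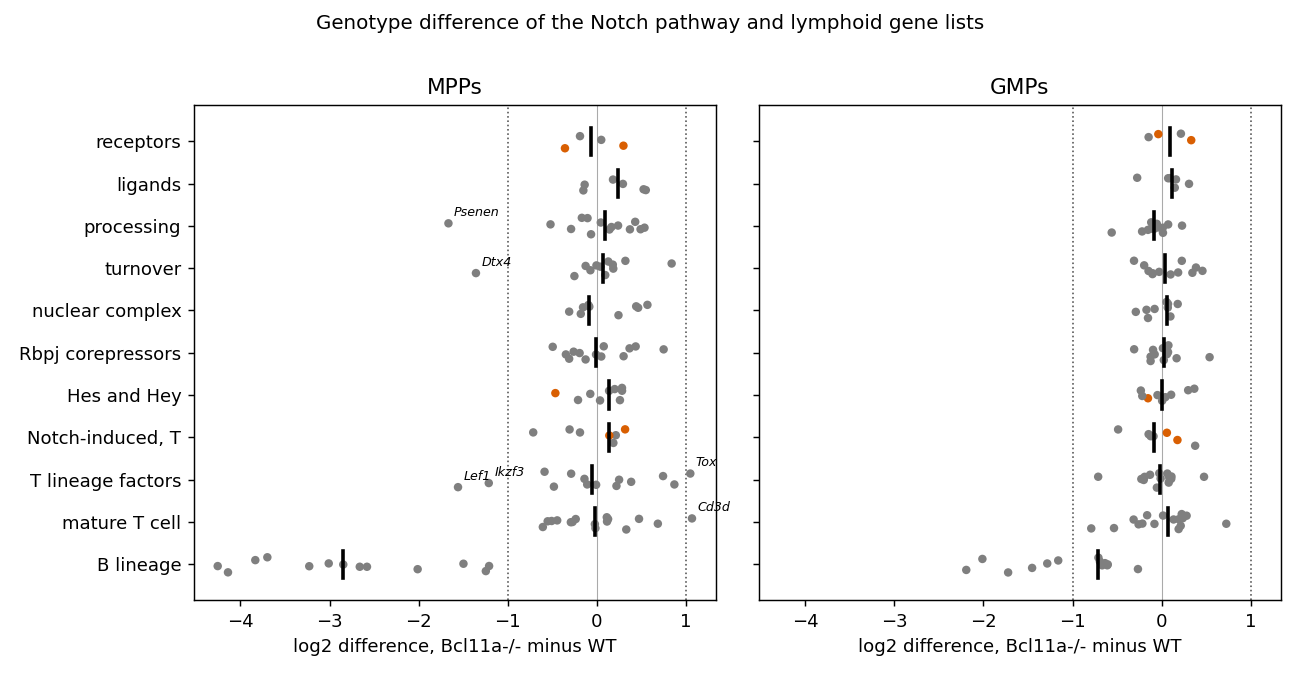
Log2 difference between *Bcl11a*-/- and WT cells (x axis) for each measured gene of 11 lists in MPPs (left) and GMPs (right), 1 array per condition. Orange points are the members, black bars are list medians and dotted lines mark 2-fold; *Psenen*, *Dtx4*, *Lef1* and *Ikzf3* lie below −1 in MPPs, and the B lineage median is −2.85 in MPPs.

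Among other transcription factors of the T lineage 3 genes passed 2-fold in MPPs. Of 14 measured, 2 were over 2-fold lower and 1 was over 2-fold higher in *Bcl11a*-/- MPPs, where 2.02% of all genes were lower and 0.908% higher, and all 14 were within 2-fold in GMPs. Their median was −0.06 in MPPs and −0.02 in GMPs, and 0.02 and 0.01 with lowess centring. *Lef1*, a partner of *Tcf7* from the same family that B cell progenitors also use, was at 5.94 in *Bcl11a*-/- MPPs, against 7.50 in WT MPPs, and at 5.43 in *Bcl11a*-/- GMPs, against 5.62 in WT GMPs. The WT MPP array stood above the other 3, and *Lef1* was 2.95-fold lower in *Bcl11a*-/- than in WT MPPs. *Ikzf3*, which encodes the lymphoid factor Aiolos, was at 4.79 in *Bcl11a*-/- MPPs, against 6.01 in WT MPPs, and at 4.50 in *Bcl11a*-/- GMPs, against 5.21 in WT GMPs. It was 2.32-fold lower in MPPs and 1.64-fold lower in GMPs. Once signals under 5 were set to 5, its differences were −1.01 in MPPs, just over 2-fold, and −0.21 in GMPs.

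*Tox*, a high mobility group factor of developing T cells and innate lymphoid cells, went the other way. It was at 8.34 in *Bcl11a*-/- MPPs, against 7.29 in WT MPPs, and at 6.09 in *Bcl11a*-/- GMPs, against 5.62 in WT GMPs. The *Bcl11a*-/- array was the higher one in both populations, by 2.07-fold in MPPs and 1.39-fold in GMPs. *Tox* was also higher in MPPs than in GMPs, by 1.96 ± 0.20 in limma (SE, 2 pairs; adjusted p of 0.027). Its MPP genotype difference lay between 1.002, just over 2-fold, with centring on the median and 1.13 with another setting, and that of *Lef1* lay between −1.60 and −1.54.

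**Figure D4:**
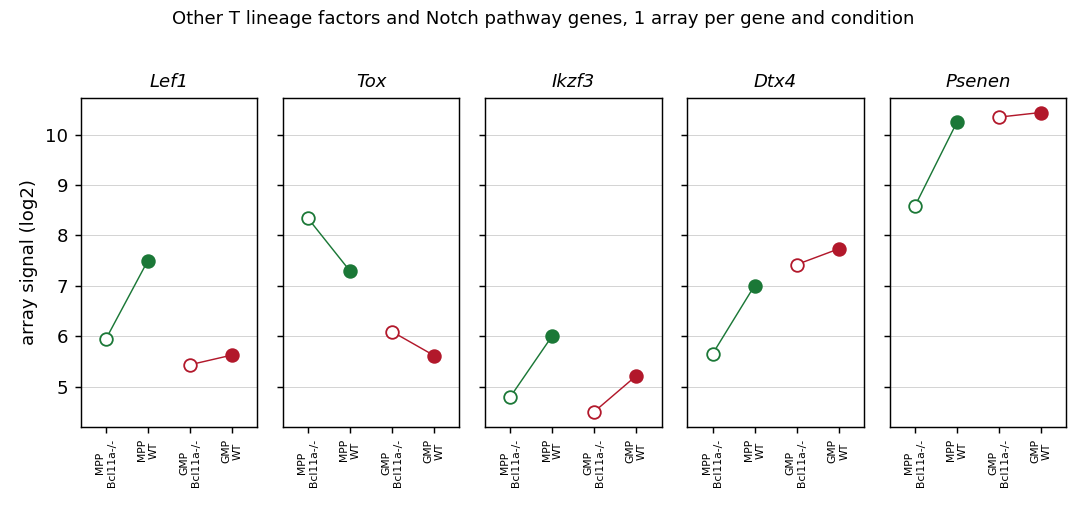
Array signal (log2, y axis) of *Lef1*, *Tox*, *Ikzf3*, *Dtx4* and *Psenen* in *Bcl11a*-/- (open) and WT (filled) MPPs (green) and GMPs (red), with 1 array per condition. *Lef1* is at 5.94 in *Bcl11a*-/- MPPs and 7.50 in WT MPPs, while *Tox* is at 8.34 and 7.29; signals of different genes are not to be compared.

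Markers of other lymphoid cells moved with genotype to different degrees. Of 16 measured genes of the T cell receptor complex and its signaling, 7 had higher and 9 lower values in *Bcl11a*-/- MPPs, with a median of −0.02, and in GMPs the median was 0.07. Only *Cd3d*, at 6.29 in *Bcl11a*-/- MPPs, against 5.23 in WT MPPs, was over 2-fold, while *Cd3e* and *Cd3g* were at 0.33 and 0.47. The summed log2 signal of this list was 85.9 in *Bcl11a*-/- MPPs, 86.0 in WT MPPs, 79.5 in *Bcl11a*-/- GMPs and 79.7 in WT GMPs. All 13 measured B lineage genes were over 2-fold lower in *Bcl11a*-/- MPPs, with a median of −2.85, and their summed log2 signal was 67.5 in *Bcl11a*-/- MPPs, 104 in WT MPPs, 62.7 in *Bcl11a*-/- GMPs and 76.7 in WT GMPs. The B lineage genes thus moved in the direction of *Lef1*, *Ikzf3*, *Gata3*, *Hes1* and *Notch1*, and their part in those differences was not tested. RMA values have no 0, so no marker is at 0.

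NK cell and innate lymphoid markers moved in both directions. Of 14 measured, 10 had higher and 4 lower values in *Bcl11a*-/- MPPs, with a median of 0.13, and in GMPs 5 were higher and 9 lower. In MPPs *Klrd1* and *Il18r1*, receptor genes of NK and innate lymphoid cells, were over 2-fold higher at 1.51 and 1.21. Their log2 signals were low, at 5.28 and 4.79 in *Bcl11a*-/- MPPs, against 3.78 and 3.58 in WT MPPs. All but that of *Klrd1* in *Bcl11a*-/- MPPs lay under 5, so these differences carry little weight. *Nkg7*, a granule protein gene, was at −1.22, and *Gzmb*, which encodes granzyme B, was at 0.88. Like all 10 GMP markers, *Nkg7* was higher in GMPs than in MPPs. Its signal was 11.68 in *Bcl11a*-/- and 11.84 in WT GMPs, against 9.31 in *Bcl11a*-/- and 10.53 in WT MPPs. The summed log2 signal of this list was 74.2 in *Bcl11a*-/- MPPs, 70.7 in WT MPPs, 68.9 in *Bcl11a*-/- GMPs and 71.7 in WT GMPs, and its part in the *Tox* and *Cd3d* differences was not tested. Of 7 pDC markers 6 had lower values in *Bcl11a*-/- MPPs, with *Bst2*, *Cox6a2* and *Spib* over 2-fold lower at −1.79, −1.76 and −1.49. Their summed log2 signal was 43.5 in *Bcl11a*-/- MPPs, 50.7 in WT MPPs, 43.1 in *Bcl11a*-/- GMPs and 45.1 in WT GMPs.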

How the data were processed

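The authors amplified RNA from sorted cells pooled by donor genotype, labeled it with biotin, and deposited log2 values made by RMA and quantile normalization with ArrayStar (version not stated). Quantile normalization can hide a change in total mRNA per cell. The 4 value columns were mapped to 4 samples, 1 per group. Of 30177 rows, 21789 had 1 gene symbol in the platform annotation, 1621 several, and 6767 are unnamed here; probe sets of 1 gene were averaged. All 7 member symbols matched RefSeq by Entrez identifier.

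Genotype differences are 1 array against 1, and no test was run. MPPs minus GMPs was fitted with limma 3.58.1 (R 4.3.3) with genotype as a block, which left 1 residual degree of freedom, and p-values were adjusted over 19938 genes. The arrays of a population come from 2 pools of different genotype. These p-values thus measure only the spread between those pools, combined with the variance shared over all genes (4.51 prior degrees of freedom). Medians, lowess (span 0.3) and quantile steps used Python 3.11.15. Steps were tested on simulated data. The plan was to name, beside the members, the highest and lowest gene of each list in each population. It also held genes over 2-fold at a log2 signal of at least 6. Not all of these are described above. Examples left out there, with their genotype differences in MPPs, are *Flt3* at −1.60, *Mycn* at 1.78, *Pf4* at 1.20 and *Fbxw7* at 0.84. Any other gene named was chosen after its values were seen. Alternatives were a floor at 5, a minimum signal of 6, centring on the median or by lowess, quantile normalization anew, the brightest probe set, and thresholds of 1.5-fold and 3-fold. The members and lists were chosen with earlier results of these data known. The number of arrays limits the precision.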

Additional observations from a re-analysis of the deposited data

Results flagged for a closer look

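*Bcl11b* was the member whose genotype difference had opposite signs in the 2 populations, 0.11 log2 units in MPPs and −0.03 in GMPs, on 1 array per condition. The difference between the populations was not tested.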

How the results depend on the processing

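All 155 values of single members, for genotype and for population, moved by less than 1.5-fold and stayed on their side of 2-fold under centring, new normalization, the floor, the signal minimum and the brightest probe set. None of the 77 genotype values among them was over 2-fold, and 1 changed sign, *Nrarp* in GMPs to −0.0011 with lowess centring. *Gata3* remained 1.20 log2 units higher in MPPs in limma with signals under 5 set to 5, where the adjusted p was 0.40 and 0 members were called; the adjusted p lay between 0.021 and 0.042 under the other 4 settings. Over all genes limma called 750, and 1469 of 10152 with a signal of at least 6.

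With a signal of at least 6 the median genotype difference of the members changed sign, to −0.36 in MPPs and 0.15 in GMPs. Over the other Notch pathway genes and T lineage factors it lay between −0.10 and 0.09 in both populations and all alternatives.

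Counts moved mostly with the threshold. Between genotypes at 1.5-fold in MPPs, 2 other Notch pathway genes were higher and 3 lower, and 3 T lineage factors were higher and 3 lower. Of all 19938 genes 1033 were higher and 1368 lower there. In GMPs 1 T lineage factor was lower at this size, where 402 of all genes were higher and 298 lower. At 3-fold between genotypes, 1 Notch pathway gene and 0 T lineage factors were lower and 0 T lineage factors higher in MPPs. With lowess centring or quantile normalization anew 2 T lineage factors were higher in MPPs. Between populations at 1.5-fold, members higher in MPPs numbered 1 in *Bcl11a*-/- and 3 in WT cells. Notch pathway genes numbered 9 higher and 5 lower in *Bcl11a*-/- cells and 7 higher and 3 lower in WT cells. In WT cells 5 T lineage factors were higher. Over all genes 10.9% were higher and 11.8% lower in *Bcl11a*-/- MPPs at this size, and 6.67% and 7.97% in WT MPPs. At 3-fold, 0 members were higher in WT cells, 0 Notch pathway genes were higher in either genotype, 1 T lineage factor was higher in *Bcl11a*-/- cells and 0 were lower in either. Centring on the median left 1 Notch pathway gene higher in WT MPPs, and lowess or quantile normalization left 0 T lineage factors lower there.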

Other observations

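Among 12 factors of stem cells and progenitors that are shut off as T cells commit, *Gata2*, the GATA factor of stem and mast cells, was at 8.49 in *Bcl11a*-/- MPPs, against 7.56 in WT MPPs, and at 8.88 in *Bcl11a*-/- GMPs, against 7.68 in WT GMPs, while *Gata3* was lower in *Bcl11a*-/- MPPs. *Gata2* was 1.91-fold higher in MPPs and 2.29-fold higher in GMPs. Its cofactor *Zfpm1* was 1.77-fold higher in MPPs and 1.96-fold higher in GMPs. All 8 measured erythroid markers also had higher values in *Bcl11a*-/- cells of both populations, with a median of 0.44 in MPPs, where *Hba-x* at 3.17 was the 1 gene over 2-fold, and of 1.36 in GMPs, where *Hba-x*, *Rhag*, *Car1*, *Klf1* and *Gata1* were over 2-fold higher at 3.79, 2.14, 2.08, 1.69 and 1.03. Their summed log2 signal was 66.7 in *Bcl11a*-/- MPPs, 60.7 in WT MPPs, 67.4 in *Bcl11a*-/- GMPs and 54.9 in WT GMPs, and their part in the *Gata2* and *Zfpm1* differences was not tested. *Spi1*, which encodes the myeloid factor PU.1, was 1.60-fold lower in *Bcl11a*-/- than in WT MPPs and 1.21-fold lower in GMPs. The median of the list was −0.14 in MPPs and −0.01 in GMPs.

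Between populations, the number of T lineage factors over 2-fold higher in MPPs was 3 in *Bcl11a*-/- cells (*Tox*, *Runx3* and *Tcf12*) and 2 in WT cells (*Tox* and *Lef1*), named after their values were seen, where 2.36% of all genes were higher in *Bcl11a*-/- and 1.33% in WT MPPs. *Gfi1*, a repressor of granulocytes and T cells, was the 1 factor over 2-fold lower, at −1.20 in *Bcl11a*-/- cells and −1.04 in WT cells, with a limma estimate of −1.12 ± 0.16 (SE, 2 pairs) and an adjusted p of 0.034, where 5.82% of all genes were over 2-fold lower in *Bcl11a*-/- and 2.8% in WT MPPs. *Runx3*, a runt domain factor of cytotoxic T cells, was at 9.97 in *Bcl11a*-/- MPPs, against 9.10 in WT MPPs, and its GMP arrays were 0.01 log2 units apart. *Thy1*, a surface marker of T cells that some progenitors carry, was higher in MPPs than in GMPs by 1.09 ± 0.16 (SE, 2 pairs) with an adjusted p of 0.034 in limma, and was 1.52-fold lower in *Bcl11a*-/- than in WT MPPs.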
